A study of Mus musculus with 30 samples.

Results

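A set of 10 genes that mark ductal epithelium was followed in cultured mouse pancreatic ductal adenocarcinoma (PDAC) cells under interferon: the keratins Krt7, Krt8, Krt18 and Krt19, the adhesion genes Epcam and Cdh1, the tight junction genes Cldn4 and Cldn7, the mucin Muc1 and the transcription factor Sox9. They were taken by name, 10 of 10 had a row in the counts of 49315 genes, and all passed the filter that left 21138 genes to test. The cells were the line 6694c2, derived from tumors of female mice with 1 floxed p53 allele, a Pdx-driven Cre and a YFP reporter, on a strain given as C57BL/6, so that all groups share this background and 1 line stands for the tumor. The line was grown for 24 h without a named agent (vehicle), with IFNγ at 100 ng/mL, with IFNβ at 1000 U/mL or with a STING agonist at 225 µg/mL, and 3 libraries were sequenced per group. The comparisons ask how the tumor cells themselves respond to each agent. Nothing in the sources used here says that the 3 libraries of a group came from separate cultures, so p-values measure the spread between these libraries, which may be technical.

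Simple epithelia such as the pancreatic duct are held together by keratin filaments, in which a type II keratin (Krt7, Krt8) pairs with a type I keratin (Krt18, Krt19). Cdh1 encodes E-cadherin, the adhesion receptor of adherens junctions, Epcam a cell surface adhesion protein, and Cldn4 and Cldn7 claudins that seal tight junctions. Muc1 is a transmembrane mucin of the apical surface, and Sox9 a transcription factor that marks ductal and progenitor cells of the pancreas. Type II interferon (IFNγ) acts mainly through GAS elements and type I interferon (IFNβ) mainly through ISRE elements in the promoters of response genes, while STING senses cyclic dinucleotides and leads to interferon production.

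Between 17450954 and 32266795 reads per 6694c2 library fell on genes, and the IFNβ and STING agonist libraries were all deeper than those of vehicle. Levels are given as CPM, a read count relative to library size after TMM scaling, and treatments were compared by edgeR's quasi-likelihood test over all 12 libraries of the line, with Benjamini-Hochberg adjustment over all genes tested. A gene was called at an adjusted p under 0.05. Both interferons raised Ifit1, an antiviral effector, from 2.09 ± 0.212 CPM (SD, n = 3) with vehicle to 26.02 ± 0.905 with IFNγ and 911 ± 36.4 with IFNβ. With the STING agonist Ifit1 reached 3.21 ± 0.483 CPM (adjusted p = 0.0339).

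The bases before the start sites of 3 members are given first, since Krt18 and Muc1 were called higher under both interferons and Krt8 is the filament partner of Krt18. Each stretch holds the 250 bases before the RefSeq start on GRCm38.p6, read 5′ to 3′ along the gene's strand, with the E-box CACCTG, a site for the Snail and Zeb repressors of epithelial genes, in capitals. Krt8 was read on the minus strand from chr15:102004343-102004592, Krt18 on the plus strand from chr15:102027966-102028215 and Muc1 on the plus strand from chr3:89228806-89229055.
Krt8: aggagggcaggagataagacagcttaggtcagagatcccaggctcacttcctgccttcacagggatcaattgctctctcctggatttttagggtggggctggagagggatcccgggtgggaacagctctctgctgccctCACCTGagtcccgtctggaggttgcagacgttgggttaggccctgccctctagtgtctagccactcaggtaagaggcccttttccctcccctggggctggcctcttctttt
Krt18: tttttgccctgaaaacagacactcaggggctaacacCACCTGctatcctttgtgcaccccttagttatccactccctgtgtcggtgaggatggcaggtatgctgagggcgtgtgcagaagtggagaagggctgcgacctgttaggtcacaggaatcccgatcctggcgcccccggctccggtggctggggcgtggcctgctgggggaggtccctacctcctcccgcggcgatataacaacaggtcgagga
Muc1: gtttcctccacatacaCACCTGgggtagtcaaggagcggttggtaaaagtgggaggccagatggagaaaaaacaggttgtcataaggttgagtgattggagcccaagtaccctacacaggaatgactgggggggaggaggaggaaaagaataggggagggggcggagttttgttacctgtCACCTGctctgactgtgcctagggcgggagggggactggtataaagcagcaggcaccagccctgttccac
Windows of 300 bases, from 250 before to 50 after the start, were at hand for 7 of the 10 members (none for Krt19, Cdh1 or Sox9). Searched on both strands, CACCTG was found in 7 of the 8 windows of these genes, against 20.2% of 32851 windows of all genes. Each of the 7 genes had a window with it. The GAS letters TTCNNNGAA and the ISRE core GAAANNGAA were each found in 1 of the 8 windows, against 8.30% and 8.56% of all windows. In both cases the window was of Cldn7, so neither stands in the windows of Krt8, Krt18, Krt7 or Muc1. The Grainyhead-like site AACCGGTT was in none of the member windows and in 0.146% of all. A match is a description of letters, not of a bound site, and its absence says nothing about these factors.

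With vehicle the 10 genes spanned a wide range of levels. Per kilobase of exon in the files, Krt8 led with 3884 ± 130 CPM per kb (SD, n = 3), before Krt18 with 2168 ± 196 and Krt19 with 1266 ± 36.4. Cdh1 followed at 124 ± 14.0 CPM per kb, Krt7 at 25.9 ± 2.24, Sox9 at 6.21 ± 0.610, Muc1 at 3.80 ± 0.0806 and Epcam at 1.59 ± 0.567. Cldn7 (0.150 ± 0.124) and Cldn4 (0.132 ± 0.132) came last, and theirs were the only neighbouring ranges that overlapped with vehicle. The exon length of Krt7 in the files, 7055 bp, sums several transcripts, and with its longest coding transcript (4094 bp, an alternative chosen after seeing the data) it reached 44.5 ± 3.85 CPM per kb, still between Cdh1 and Sox9.

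So 3 of the 10 markers were barely present in this line. Epcam had 36 to 85 reads in a library, Cldn4 1 to 13 and Cldn7 2 to 11, over all 12 libraries of 6694c2. In the vehicle libraries Epcam stood at 2.16, 3.14 and 4.46 CPM, Cldn4 at 0.0539, 0.154 and 0.508, and Cldn7 at 0.108, 0.206 and 0.565. Vehicle replicate 3 was the highest of its group for all 3 genes. At this depth changes of Cldn4 or Cldn7 of several fold in either direction were not detectable: the 95% interval of their log2 fold change with IFNγ ran from -1.91 to 1.41 for Cldn4 and from -1.25 to 1.41 for Cldn7. Another 2 epithelial genes chosen with the members were also near the floor with vehicle, namely the transcription factor Grhl2 (0.160 ± 0.107) and the basal keratin Krt17 (0.699 ± 0.145). Vim, the intermediate filament gene of mesenchymal cells, stood at 3474 ± 226 CPM. The line carried the keratins and E-cadherin of a ductal cell together with abundant vimentin and with little Epcam, Cldn4 or Cldn7.

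**Figure D1:**
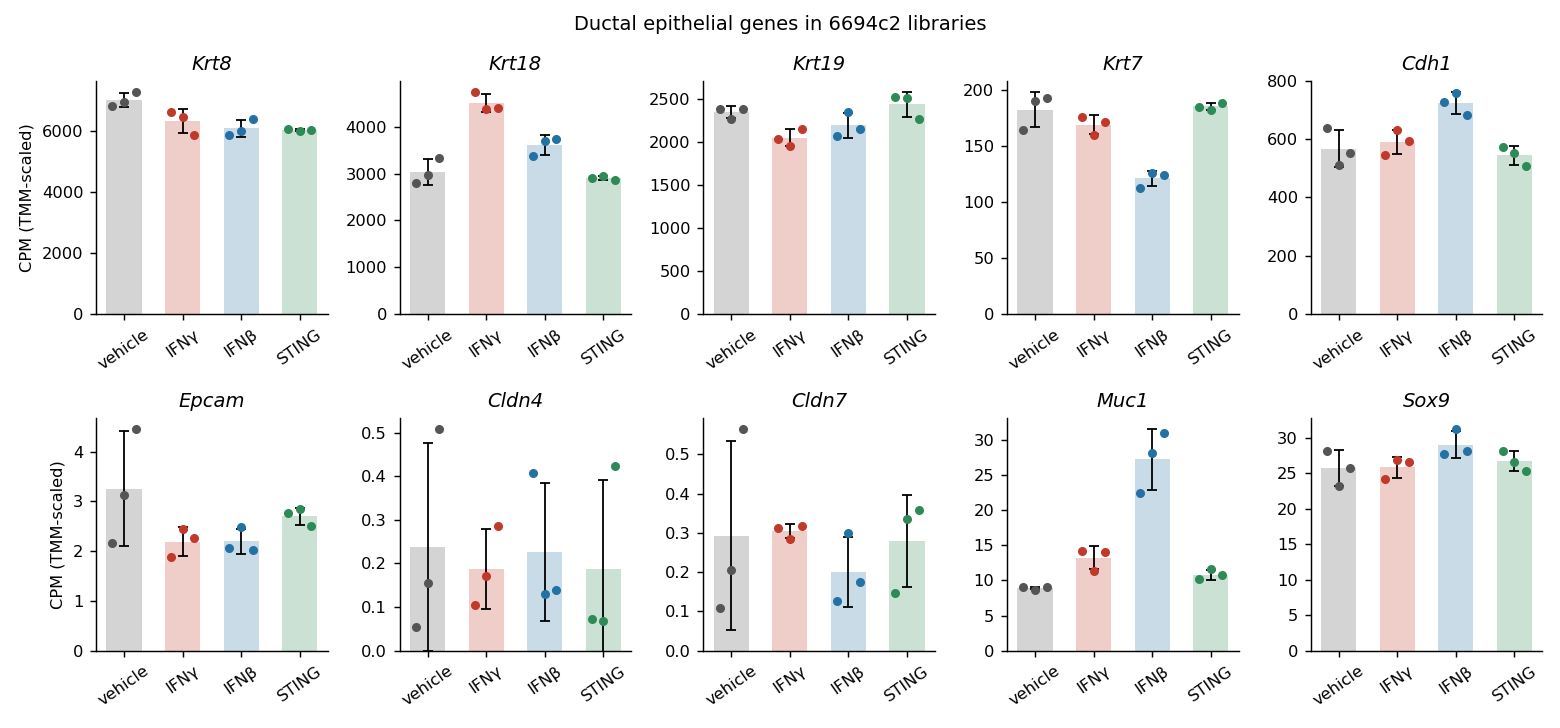
Level of each of the 10 genes (y axis, CPM after TMM scaling, starting at 0) in the 12 libraries of 6694c2 cells by treatment (x axis), with dots for libraries, bars for means and error bars for the SD. Krt18 stands above vehicle with both interferons, Krt7 below it with IFNβ, and Muc1 rises from about 8.91 to 27.3 CPM with IFNβ, while Epcam, Cldn4 and Cldn7 stay under 5 CPM throughout.

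With IFNγ, Krt18 and Muc1 rose and Krt19 fell among the 10 genes, and the other 7 were not called. Thus 2 members were called higher, where 7.89% of all genes were, and 1 lower, where 5.66% were. In either direction this makes 3 of 10 against 13.5% of all genes and 24.6% of the 9733 genes over 5 CPM, a level that 7 of the members pass. The median log2 fold change of the 10 was -0.05, and that of all genes 0.00. Of all calls with IFNγ 58.2% were higher, a share that fell to 39.6% with upper-quartile scaling.

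Krt18 (ENSMUSG00000023043, chr15:102028216-102032026, plus strand), the type I partner of Krt8, was at 2803, 2966 and 3337 CPM with vehicle and at 4745, 4391 and 4411 CPM with IFNγ. Every IFNγ library lay above every vehicle library. The rise was 1.49-fold (log2 fold change 0.57, SE 0.0631, edgeR adjusted p = 1.29e-09). In bulk RNA, fewer or more cells with a transcript and less or more of it per cell cannot be told apart. Muc1 (ENSMUSG00000042784, chr3:89229057-89233381, plus strand) was at 9.01, 8.70 and 9.04 CPM with vehicle and at 14.3, 11.4 and 14.1 CPM with IFNγ. Its groups did not overlap either, and it rose 1.49-fold (log2 fold change 0.58, SE 0.122, edgeR adjusted p = 0.000479). Both calls held under all 22 alternatives.

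Krt19 (ENSMUSG00000020911, chr11:100140810-100148665, minus strand), a type I keratin of ducts, was at 2386, 2271 and 2390 CPM with vehicle and at 2038, 1957 and 2153 CPM with IFNγ. The ranges did not meet, but the fall was small, at 1.15-fold (log2 fold change -0.20, SE 0.0626, edgeR adjusted p = 0.0274). The call was lost without vehicle replicate 3 (adjusted p = 0.104), without IFNγ replicate 1 (0.0793) or 2 (0.142) and in a fit over all 24 libraries of both lines (0.392). Krt8 (ENSMUSG00000049382, chr15:101996711-102004342, minus strand), the main type II keratin, was at 6808, 6952 and 7269 CPM with vehicle and at 6620, 6439 and 5870 CPM with IFNγ. The IFNγ libraries were all lower, yet the log2 fold change of -0.15 (SE 0.0578) was not called (edgeR adjusted p = 0.0802). It was called by DESeq2 (0.0397), with total read (0.018) or upper-quartile scaling (0.00779), and without vehicle replicate 1 (0.0464) or IFNβ replicate 2 (0.0447). Krt7, Cdh1 and Sox9 had log2 fold changes of -0.11 (95% interval -0.25 to 0.03), 0.06 (-0.09 to 0.20) and 0.01 (-0.17 to 0.19) with IFNγ, and their groups overlapped. Epcam was at 1.87, 2.45 and 2.26 CPM with IFNγ, within or below the spread of vehicle (log2 fold change -0.56, SE 0.223, edgeR adjusted p = 0.0989), and became called without vehicle replicate 1 (0.0106).

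With IFNβ, Muc1, Cdh1 and Krt18 rose and Krt7 and Krt8 fell. These are 3 members called higher, where 10.4% of all genes were, and 2 lower, where 7.86% were. In either direction this is 5 of 10, against 18.2% of all genes and 33.7% of those over 5 CPM. The median log2 fold change of the 10 was -0.06, and that of all genes 0.00. Of all calls with IFNβ 56.8% were higher, against 42.3% with total read scaling and 35.9% with upper-quartile scaling.

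Muc1 showed the largest fold change of the 10 in any comparison. It reached 22.5, 28.2 and 31.1 CPM with IFNβ, all above the 8.70 to 9.04 CPM of vehicle, a 3.06-fold rise (log2 fold change 1.61, SE 0.116, edgeR adjusted p = 4.08e-15). Cdh1 (ENSMUSG00000000303, chr8:106603351-106670246, plus strand) was at 638, 512 and 553 CPM with vehicle and at 728, 760 and 685 CPM with IFNβ. The groups did not overlap, and E-cadherin transcripts rose 1.28-fold (log2 fold change 0.35, SE 0.0720, edgeR adjusted p = 0.000245). Krt18 was at 3369, 3707 and 3751 CPM with IFNβ, above vehicle by 1.19-fold (log2 fold change 0.25, SE 0.0629, edgeR adjusted p = 0.00292). For Krt18 the highest vehicle library, replicate 3, lay just under the lowest IFNβ library. The Krt18 call was lost with upper-quartile scaling (adjusted p = 0.0836) and over all 24 libraries (0.344), whereas those of Muc1 and Cdh1 held under all 22 alternatives.

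Krt7 (ENSMUSG00000023039, chr15:101411043-101430313, plus strand), the type II keratin of ducts, was at 164, 190 and 193 CPM with vehicle and at 113, 126 and 124 CPM with IFNβ. The groups were far apart, and the fall was 1.51-fold (log2 fold change -0.59, SE 0.0695, edgeR adjusted p = 6.22e-09), called under all 22 alternatives. Krt8 was at 5870, 5995 and 6391 CPM with IFNβ, below all vehicle libraries, and fell 1.15-fold (log2 fold change -0.20, SE 0.0578, edgeR adjusted p = 0.00876). That call was lost without vehicle replicate 3 (adjusted p = 0.0564) and over all 24 libraries (0.45). Krt19 and Sox9 were not called (Krt19 was with upper-quartile scaling, adjusted p = 0.0251), with log2 fold changes of -0.10 (95% interval -0.23 to 0.03) and 0.18 (-0.004 to 0.353). Epcam was at 2.07, 2.49 and 2.02 CPM (log2 fold change -0.57, SE 0.217, edgeR adjusted p = 0.0632), not called here but called under 6 of 22 alternatives. Of these, leaving out vehicle replicate 1 gave adjusted p = 0.00637, and the other left-out libraries were IFNγ replicate 2 and IFNβ replicate 2. The annotation places an antisense gene, Gm671, over Krt7 and a long noncoding RNA, Gm36026, over Krt8. Neither is counted on its own, and since the strand setting of the counting is not given, reads from them cannot be told apart from those of the keratins. The pseudogene Krt8-ps took 0.0946% to 0.201% as many reads as Krt8 in a library, so reads split between these copies were few.

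**Figure D2:**
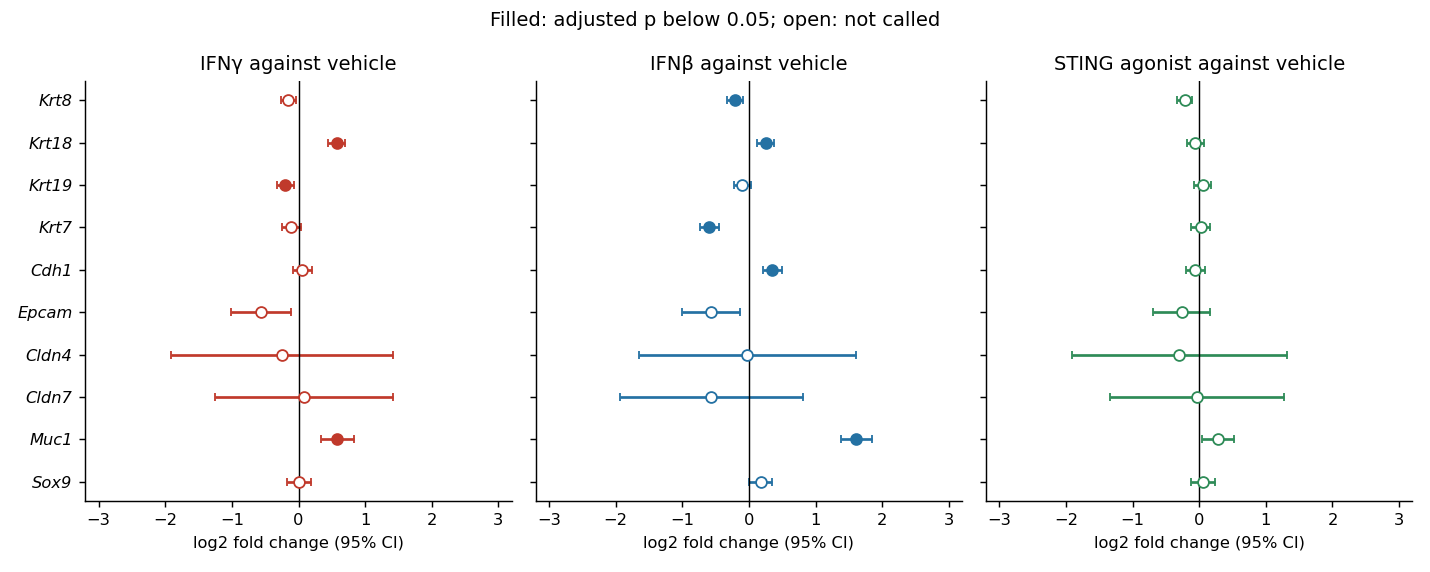
Log2 fold change of the 10 genes (y axis) against vehicle with its 95% interval (x axis) for IFNγ, IFNβ and the STING agonist, from edgeR over 12 libraries of 6694c2 cells, with filled points at an adjusted p under 0.05. Filled points stand at 0.57 for Krt18 and 0.58 for Muc1 with IFNγ and at 1.61 for Muc1 and -0.59 for Krt7 with IFNβ, and the STING agonist panel has none.

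With the STING agonist none of the 10 genes was called, where 0.203% of all genes were called higher, 0.156% lower and 0.36% in either direction. At an unadjusted p under 0.05 there were 2 of the 10 members, against 7.81% of all genes, and DESeq2 called 1. Krt8 was at 6053, 5990 and 6014 CPM, below every vehicle library, with a log2 fold change of -0.22 (SE 0.0578, edgeR adjusted p = 0.0998). The unadjusted p was 0.000477. Alternatives that called it included DESeq2 (0.0145), no filter (0.0373), the 6 libraries compared (0.0121), and leaving out vehicle replicate 1 or IFNβ replicate 2. Muc1 was at 10.2, 11.6 and 10.7 CPM, also outside the range of vehicle, with a log2 fold change of 0.28 (SE 0.121, edgeR adjusted p = 0.535) and was called under no alternative. The other 5 members over 5 CPM had log2 fold changes between -0.06 and 0.06, each with groups that overlapped. Epcam was at 2.77, 2.84 and 2.51 CPM with the STING agonist (log2 fold change -0.26, edgeR adjusted p = 0.809).

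Comparing the interferons with each other tests where the responses differ, in the same fit over 12 libraries. Muc1 and Cdh1 were higher with IFNβ than with IFNγ, 2 members where 7.30% of all genes were higher. Krt7 and Krt18 were lower, 2 members where 6.57% were, and in either direction 13.9% of all genes differed. Muc1 was 2.05-fold higher with IFNβ (log2 difference 1.03, SE 0.108, edgeR adjusted p = 4e-10) and Cdh1 1.23-fold higher (log2 difference 0.29, SE 0.0719, edgeR adjusted p = 0.00272). Krt7 was 1.40-fold lower with IFNβ (log2 difference -0.48, SE 0.0694, edgeR adjusted p = 6.9e-07), and Krt18 1.25-fold lower (log2 difference -0.32, SE 0.0629, edgeR adjusted p = 0.000157). All of these pairs of groups were free of overlap, and only the Krt18 call was lost under an alternative, the fit over all 24 libraries (0.105). Krt8 and Krt19 had differences between the interferons of -0.05 (95% interval -0.17 to 0.07) and 0.10 (-0.03 to 0.22), so their smaller responses were not shown to differ between IFNβ and IFNγ. The same holds for Epcam, at -0.01 (-0.46 to 0.44), and for Sox9, at 0.17 (-0.01 to 0.34).

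The ratio between the keratins of a filament pair was lower in every treated library than in any vehicle library. Krt8 and Krt18 lie next to each other in the genome, with 23873 bases between them. Keratin filaments hold type II and type I proteins in equal numbers, and Krt19 is a type I keratin as well as Krt18. Per kilobase, the ratio of Krt8 to Krt18 reads was 1.80 ± 0.0989 (SD, n = 3) with vehicle, with libraries between 1.69 and 1.88. It was 1.08 ± 0.0526 with IFNγ (1.03 to 1.14), 1.31 ± 0.0496 with IFNβ (1.25 to 1.35) and 1.60 ± 0.0279 with the STING agonist (1.57 to 1.62). No group overlapped another, so the order vehicle, STING agonist, IFNβ, IFNγ held library by library. Per kilobase the levels of Krt8 and Krt18 were near equal with IFNγ, where Krt8 ran from 3252 to 3668 CPM per kb and Krt18 from 3136 to 3389, and only there did these genes overlap. A ratio within a library does not depend on scaling between libraries.

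The ratio of type II (Krt7 and Krt8) to type I (Krt18 and Krt19) transcripts was 1.14 ± 0.0308 with vehicle, 0.813 ± 0.0490 with IFNγ, 0.902 ± 0.0429 with IFNβ and 0.990 ± 0.0310 with the STING agonist. All groups of treated libraries lay below vehicle, while the ranges of IFNβ and IFNγ overlapped. In exact two-sided permutation tests, 7 of 8 comparisons of these ratios (n = 3 against 3) gave p = 0.1, the smallest that 3 against 3 libraries allow, and 0.114 after Benjamini-Hochberg adjustment over the 8. IFNβ against IFNγ for the type II to type I ratio gave an exact permutation p = 0.2. The comparisons with vehicle share the 3 vehicle libraries.

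**Figure D3:**
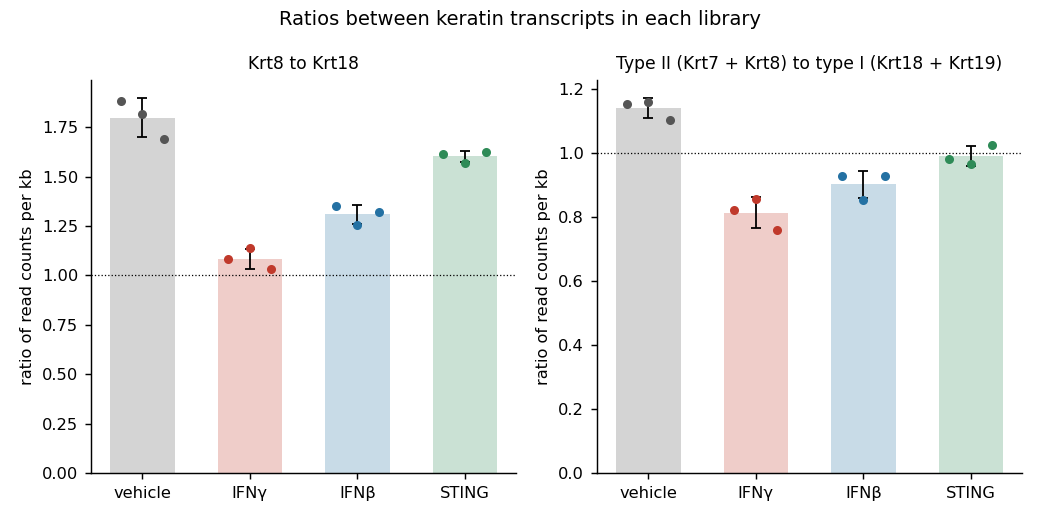
Ratio of Krt8 to Krt18 reads per kb (left) and of type II to type I keratin reads per kb (right) on the y axis, by treatment of 6694c2 cells, with dots for libraries, bars for means, error bars for the SD and a dotted line at 1. The Krt8 to Krt18 ratio falls from 1.80 with vehicle to 1.08 with IFNγ.

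Other epithelial genes, in 5 lists chosen with the members, also moved in both directions. Of 73 listed genes 71 were tested. With IFNγ 12 were called higher and 11 lower, which is 32.4% against 13.5% of all genes and 24.6% of those over 5 CPM, with a median log2 fold change of 0.00. With IFNβ 9 were called higher and 14 lower, again 32.4%, against 18.2% of all genes and 33.7% of those over 5 CPM, with a median of -0.07. With the STING agonist only Jup, which encodes plakoglobin, was called. Those called under interferon had a median fold change of 1.28 with IFNγ and 1.36 with IFNβ, so like the members most moved little.

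Among 11 other keratins none was called higher against vehicle, and only 5 of the 11 reached a mean of 5 CPM in either group. With IFNγ 3 fell and with IFNβ 2. The basal keratin Krt14 was at 92.1, 81.9 and 84.1 CPM with vehicle, 48.4, 46.8 and 49.6 CPM with IFNγ and 59.5, 64.1 and 60.3 CPM with IFNβ, a fall of 1.78-fold (edgeR adjusted p = 9.67e-13) and 1.40-fold (4.73e-07). Krt13, a keratin of stratified mucosa, fell 1.26-fold with IFNγ (edgeR adjusted p = 0.0174) and 1.86-fold with IFNβ (2.91e-09). Krt20, a keratin of gut-type epithelium, fell 1.16-fold with IFNγ (edgeR adjusted p = 0.0333) and had a log2 fold change of 0.17 with IFNβ (0.0755). Krt14 was thus lower with IFNγ than with IFNβ (edgeR adjusted p = 0.000361), and Krt13 lower with IFNβ than with IFNγ (5.84e-05).

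Of 15 tight junction genes 3 rose and 2 fell with IFNγ, and 4 rose and 4 fell with IFNβ. F11r, which encodes the junctional adhesion molecule JAM-A, stood at 133 ± 8.71 CPM with vehicle and rose 1.23-fold with IFNγ (edgeR adjusted p = 0.00132) and 1.65-fold with IFNβ (2.13e-11). Cgn, which encodes the junction plaque protein cingulin, rose 1.43-fold with IFNγ (edgeR adjusted p = 1.83e-06), and the claudin gene Cldn12 rose 1.36-fold with IFNβ (6.53e-06). Ocln, the gene of occludin, fell 1.32-fold with IFNγ (edgeR adjusted p = 0.015) and 1.38-fold with IFNβ (0.00251), and the claudin gene Cldn6 fell 1.32-fold (0.00272) and 1.34-fold (0.00101). Of 13 genes of adherens junctions and desmosomes 2 rose and 4 fell with each interferon. Desmoplakin (Dsp) fell 1.29-fold with IFNγ (edgeR adjusted p = 0.00225) and 1.35-fold with IFNβ (0.000169), and the plakophilin Pkp1 fell from 6.05 ± 0.247 CPM to 2.41 ± 0.684 with IFNγ (5.83e-07) and 3.73 ± 0.969 with IFNβ (0.00319). Pkp3 fell 1.26-fold with IFNγ (edgeR adjusted p = 0.0407). Periplakin (Ppl), a linker of keratin filaments, rose 1.24-fold with IFNγ (edgeR adjusted p = 0.00138) and 1.44-fold with IFNβ (2.73e-07). Jup rose 1.22-fold with the STING agonist (edgeR adjusted p = 0.0322).

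Of 15 tested genes of the apical surface and its proteases 1 rose and 1 fell with IFNγ and 3 fell with IFNβ. Only 5 of the 15 reached a mean of 5 CPM in either group, and neither gene called with IFNγ was among them. Tspan8, a tetraspanin, fell 1.37-fold with IFNβ (edgeR adjusted p = 2.76e-06) and the protease inhibitor Spint2 1.15-fold (0.0335). Of 17 tested epithelial transcription and splicing factors 6 rose and 1 fell with IFNγ, and 3 rose and 1 fell with IFNβ. Among the 17, 10 reached a mean of 5 CPM in either group, and the gene that fell with IFNβ did not. Elf3, an epithelial ETS factor, was at 63.5, 59.2 and 62.0 CPM with vehicle and at 95.4, 97.8 and 100.0 CPM with IFNγ, a 1.59-fold rise (edgeR adjusted p = 7.5e-09). With IFNβ Elf3 was at 70.0 ± 8.57 CPM and was not called (edgeR adjusted p = 0.11), and it was lower there than with IFNγ (5.68e-06). Gata6 rose 1.38-fold with IFNγ (edgeR adjusted p = 1.15e-05) and 1.32-fold with IFNβ (7.83e-05), and Foxa2 1.24-fold (0.00111) and 1.38-fold (8.75e-07), both factors of endoderm.

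Of 17 tested mesenchymal genes 3 rose and 2 fell with IFNγ, and 2 rose and 2 fell with IFNβ. Among the 17, 8 reached a mean of 5 CPM in either group, and 1 of the 3 that rose with IFNγ did not. Prrx1, a homeobox factor of mesenchyme, was at 2.86, 1.96 and 1.75 CPM with vehicle, 10.7, 12.8 and 11.8 CPM with IFNγ and 18.4, 19.2 and 18.6 CPM with IFNβ. That is a 5.36-fold rise with IFNγ (edgeR adjusted p = 8.51e-17) and an 8.54-fold rise with IFNβ (3.07e-21), larger than that of any of the 10 ductal genes. Zeb1, a repressor of E-cadherin, rose 1.39-fold with IFNγ (edgeR adjusted p = 0.000206) and 1.46-fold with IFNβ (1.34e-05), while Cdh1 itself rose with IFNβ. S100a4 fell 2.05-fold with IFNγ (edgeR adjusted p = 3.81e-08) and 1.80-fold with IFNβ (1.34e-06). Vim had log2 fold changes of 0.14 with IFNγ (edgeR adjusted p = 0.195) and 0.01 with IFNβ (0.978).

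**Figure D4:**
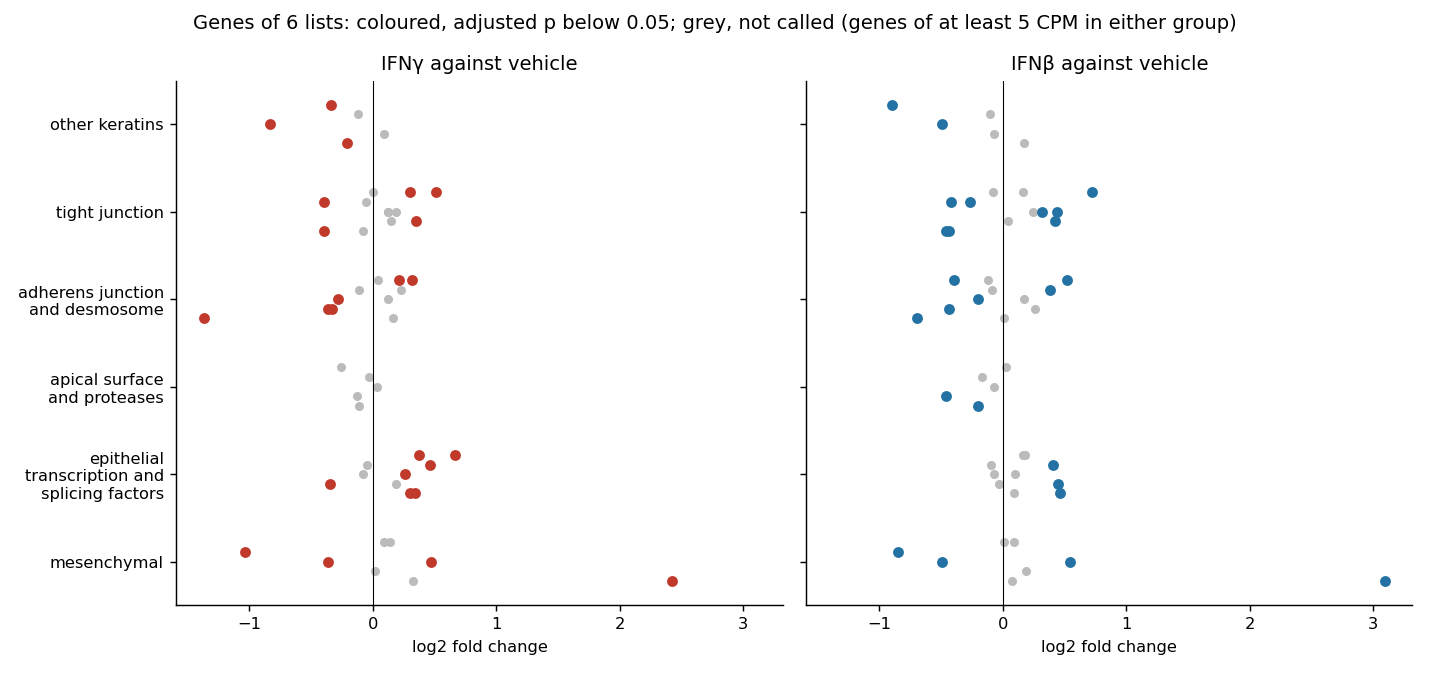
Log2 fold change (x axis) with IFNγ (left) and IFNβ (right) of the genes of 5 epithelial lists and a mesenchymal list (y axis) that had at least 5 CPM in either group, coloured where the adjusted p was under 0.05 and grey where it was not. Coloured points stand on both sides of 0 in most lists, and the point farthest right is Prrx1, at 2.42 with IFNγ and 3.09 with IFNβ.

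Markers of other cell types were checked for RNA from elsewhere. Of 9 endocrine markers all, and of 12 acinar markers 11, stayed under 1 CPM in every library of 6694c2 cells. The exception, Cela1, was at 45.3 ± 1.43 CPM with vehicle and fell 1.95-fold with IFNγ (edgeR adjusted p = 2.81e-12) and 2.11-fold with IFNβ (5.95e-14). Of 6 leukocyte markers 3 were under 1 CPM throughout, and the sum of the 6 lay between 2.96 and 5.05 CPM over all libraries. Among them Cd68, a macrophage marker chosen for mention after its values were seen, was called higher with IFNγ, at 1.71 ± 0.216 CPM against 0.818 ± 0.258 with vehicle (edgeR adjusted p = 0.0267), and its part in the members' changes was not tested. In the 11 melanocyte genes, which mark the B16F10 melanoma line sequenced alongside, the median level was 0.435% ± 0.0286 (SD, n = 3) of that in B16F10 vehicle libraries with vehicle, 0.430% ± 0.253 with IFNγ, 0.163% ± 0.0398 with IFNβ and 0.0983% ± 0.00670 with the STING agonist. Of these genes 9 were called lower with IFNβ, 7 with the STING agonist and none with IFNγ, and Dct, Tyrp1 and Pmel were the 3 of them over 5 CPM with vehicle. An estimate took the highest median share in a library, 0.676%, and the highest level of each gene in B16F10 cells. By it, reads of that line would supply 0.0142% or less of the lowest level of Krt7, Krt8, Krt18, Krt19 or Cdh1. It gave 0.115% for Muc1, 0.0943% for Sox9, 0.773% for Epcam, 3.63% for Cldn7 and 10.6% for Cldn4. Single melanocyte genes had larger shares, up to 3.65% for Trpm1 in vehicle replicate 1, so these figures are not upper bounds.

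In the other direction, the 10 genes had reads in libraries of B16F10 cells given the same agents, which serve here only as a check. The median level of Krt7, Krt8, Krt18, Krt19 and Cdh1, as a percentage of the vehicle level in 6694c2 cells, was 0.153% ± 0.0290 with vehicle, 0.247% ± 0.114 with IFNγ, 0.320% ± 0.145 with IFNβ and 0.987% ± 0.130 with the STING agonist (SD, n = 3). Muc1 and Sox9 stood higher, at 12.5% for Muc1 with IFNγ against 1.66% with vehicle, and at 5.76% to 9.85% for Sox9 over the groups. In B16F10 IFNβ replicate 1, Epcam, Cldn4 and Cldn7 had 48, 19 and 13 reads, for Cldn4 and Cldn7 more than in any 6694c2 library. How much of these reads was carried over from 6694c2 libraries was not tested.

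**Figure D5:**
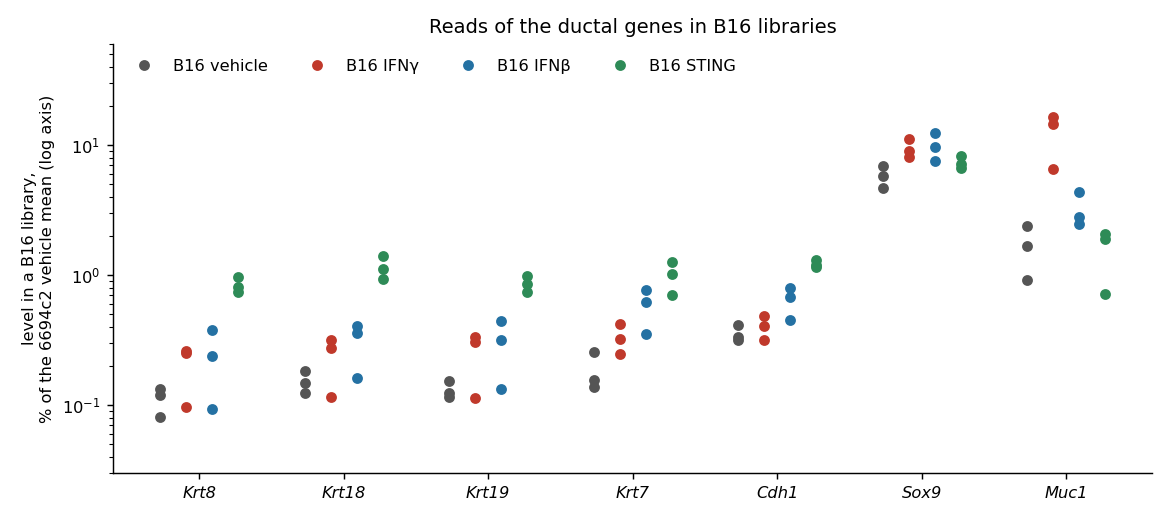
Level of 7 of the genes in each B16F10 library as a percentage of the mean of the 6694c2 vehicle libraries (y axis, log scale), by gene (x axis) and treatment (colour), 1 dot a library. The 4 keratins and Cdh1 lie together near 1% with the STING agonist and below that with vehicle. Sox9 lies higher in every group, and so does Muc1 except with the STING agonist, where its libraries overlap those of the other genes.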

How the data were processed

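RNA of 6694c2 and B16F10 cells was sequenced in 24 bulk libraries, 12 per line. The authors trimmed reads with cutadapt 1.14, aligned them with STAR 2.7.9a, and deposited raw read counts per gene made with Rsubread. The annotation, strand setting and treatment of multi-mapping reads are not given in the sources used here. Of the genes, 49056 are in GENCODE M21 (GRCm38) and 91.4% of these have the same span there, so coordinates are on GRCm38. The single-cell samples were not analysed here.

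Genes with at least 10 reads over the 24 libraries were kept, and the 12 libraries of 6694c2 cells were fitted by group with TMM scaling in edgeR 4.0.16 (R 4.3.3). The study's methods use DESeq2, which is an alternative here (1.42.0). Ratios were compared by exact permutation in scipy 1.17.1. Per-kilobase levels divide by the exon length in the files. The fit was tested on simulated data. Depth sets the precision of Epcam, Cldn4 and Cldn7. The members and lists were chosen with earlier results of these data known. Besides the 10 members, the text names up to 3 called genes per list and comparison with the largest fold change and at least 5 CPM in the higher group, and Krt17, Vim, Zeb1, Grhl2, Elf3 and Ifit1. Some genes that this rule takes are not reported here. Alternatives were DESeq2, RLE, total read and upper-quartile scaling, filterByExpr, no filter, the 6 libraries compared, all 24 libraries, a robust fit, a replicate block and each library left out.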

Additional observations from a re-analysis of the deposited data

Results flagged for a closer look

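The following are members in B16F10 cells, outside the comparisons of the report, whose 3 treated libraries all lay above the 3 vehicle libraries, given as mean CPM of total reads on genes. With the STING agonist these were Krt8 at 59.8 CPM (vehicle 7.89), Krt18 at 35.4 (4.66), Krt19 at 20.5 (3.13), Cdh1 at 7.04 (2.05) and Krt7 at 1.85 (0.340). With IFNβ they were Cdh1 at 3.69, Sox9 at 2.57 (vehicle 1.51), Krt7 at 1.08 and Muc1 at 0.290 (vehicle 0.150). With IFNγ they were Sox9 at 2.46 and Muc1 at 1.14. These are 5 of the 10 members with the STING agonist, where 11.5% of all 21138 genes met the same condition, 4 with IFNβ (19.4%) and 2 with IFNγ (15.7%). The treated libraries of 6694c2 cells held these genes at far higher levels, and the part of reads carried over between lines was not tested.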

How the results depend on the processing

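Over 876 alternative values of the members' log2 fold changes, 848 kept their side of the threshold, 9 lost a call and 19 gained one, and no called value turned its direction. A change of sign occurred in 34, all called in neither fit. The count of members called higher was the same in every comparison and alternative except IFNβ, where the loss of Krt18 gave 2 in place of 3 with upper-quartile scaling and over all 24 libraries. For IFNγ the count called lower, 1, was 2 with DESeq2, total read scaling and upper-quartile scaling, 0 over all 24 libraries, and 0 to 3 with a library left out. For IFNβ the 2 called lower became 4 with upper-quartile scaling, 3 with total read scaling or no filter, 1 over all 24 libraries, and 1 to 3 with a library left out. For the STING agonist the 0 called lower became 1 with DESeq2, no filter, the 6 libraries compared and the replicate block, and 0 to 1 with a library left out. For IFNβ against IFNγ the 2 called lower became 1 over all 24 libraries. The cause of these changes was not tested. Over all genes, calls lower with upper-quartile scaling rose from 1196 to 1985 with IFNγ and from 1662 to 2686 with IFNβ. For the STING agonist, calls higher went from 43 to 99 with no filter, 83 on the 6 libraries compared, 82 with the replicate block and 26 with upper-quartile scaling, and calls lower from 33 to 60 with no filter.

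Replicate numbers did not pair the samples: deviations of same-numbered libraries correlated between -0.412 and 0.334 over 18 pairs, and others between -0.534 and 0.512. With the replicate block, Krt8 was called with the STING agonist (adjusted p = 0.0398), and no other member's call changed. The keratin ratios kept their direction with no division by length and with each library left out, with log2 differences in Krt8 to Krt18 of -0.77 to -0.69 for IFNγ, -0.50 to -0.42 for IFNβ and -0.21 to -0.13 for the STING agonist. Depth limits Epcam, Cldn4 and Cldn7, whose few reads leave wide intervals. The other lists were not refitted under the alternatives.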
